A study of Drosophila melanogaster with 9 samples.

Results

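The growth regulator Myc was followed at the RNA level with 7 genes whose products bind it, compete with it or control its stability, in wing discs depleted of Psi or of Myc. The 8 genes (Myc, Max, Mnt, ago, puf, lid, pont and rept) were chosen by name for their known links to Myc, out of 17471 genes in the count tables, and all 8 were among the 9235 genes that passed the filter on low counts. The tissue was the larval wing imaginal disc of Drosophila melanogaster, an epithelial sac that gives rise to the adult wing, and RNA-seq covered 3 groups of 3 libraries. Every group carried tubulin-GAL4, a ubiquitous driver, and temperature-sensitive GAL80, which holds GAL4 in check until the temperature is raised. The control was tsGAL80;tubG4/+ (stocks BL7019, BL5138 and BL39831), Psi RNAi was tsGAL80;tubG4/Psi RNAi with the hairpin of stock V105135, and Myc RNAi was tsGAL80;tubG4/Myc RNAi with the hairpin of stock V2947. Each knockdown therefore rests on 1 hairpin line, expressed for 3 days, and each library was made from a pool of 60 discs collected in lots of 20. The labels give every group 4 days at 18 °C and then 25 °C. The control counts were deposited under the name of a white-eyed laboratory strain, which leaves the control genotype uncertain. The larval stage and the second rearing temperature are given differently by different sources. Whether the pools of a group came from separate crosses is not stated, and p-values therefore measure only the spread between these pools, which may be partly technical.

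Myc is a transcription factor of the basic helix-loop-helix leucine zipper class that drives growth of imaginal discs, largely through genes for making ribosomes. It binds DNA as a dimer with Max, and Mnt, a repressor of the same class, also pairs with Max and opposes Myc. Myc protein is short-lived, because Archipelago (ago), the F-box subunit of a ubiquitin ligase, marks it for destruction, whereas the deubiquitinating enzyme Puffyeye (puf) protects it. Little imaginal discs (lid) is a histone demethylase that binds Myc, and Pontin (pont) and Reptin (rept) are related ATPases that bind Myc and also work in chromatin remodelling complexes and in the assembly of small nucleolar ribonucleoproteins (snoRNPs). Psi, a KH-domain protein related to human FUBP1, is known as an activator of Myc transcription in the wing.

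In the BDGP6 annotation of the fly genome, Myc (FBgn0262656) lies on chromosome X from 3373159 to 3391697 on the plus strand and Mnt (FBgn0023215) on X from 3671801 to 3701672 on the plus strand. On 3L, rept (FBgn0040075) runs from 19255340 to 19257111 on the plus strand and Max (FBgn0017578) from 19262232 to 19264184 on the minus strand, 5120 bases apart, and ago (FBgn0041171) runs from 4246343 to 4254306 on the minus strand. On 3R, pont (FBgn0040078) lies from 10262123 to 10263899 on the plus strand and puf (FBgn0039214) from 24635270 to 24650043 on the minus strand, and on 2L, lid (FBgn0031759, annotated as Kdm5) lies from 5989400 to 5999501 on the minus strand. Of the 9170 exonic bases of Myc, 1859 are shared with a long non-coding RNA gene on the same strand, lncRNA:CR44999, which held 7 to 28 counts per library. A further 3754 lie opposite CG12535 on the other strand, with 11 to 22 counts, and counting used strand. Pairs in the bases shared on the same strand can be ambiguous and so stay outside the counts of both genes. The levels per kb of Myc and its ratios below use all 9170 bases and may therefore be too low, which was not tested. Max overlaps 3 genes on the other strand and none on its own. The 8 genes had 1369 to 11716 counts in a library.

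Libraries held 26287040 to 34401160 read pairs assigned to genes. Levels are CPM, a gene's counts relative to the scaled total of its library, and differences are log2 fold changes ± standard error. A gene was called at a Benjamini-Hochberg adjusted p below 0.01 over all tested genes in edgeR's quasi-likelihood test. Psi, the other targeted gene, measured 335, 322 and 323 CPM across the control libraries, 74.7, 65.7 and 61.7 CPM across those of Psi RNAi (a fall of -2.28 ± 0.08 on the log2 scale, edgeR adjusted p = 1.13e-06) and 346, 311 and 307 CPM across those of Myc RNAi. The 20 wing disc markers examined were detected in every library, and their summed level was 4683 to 4712 CPM in the controls, 4382 to 4889 in Psi RNAi and 4873 to 5037 in Myc RNAi. Markers of other tissues were uneven, with 8 fat body genes summing to between 264 CPM (Psi RNAi replicate 3) and 11222 CPM (control replicate 1), and 14 salivary gland and gut genes reaching 2031 CPM in Psi RNAi replicate 1 against 7.77 to 39.8 CPM in the controls. The 8 haemocyte genes summed to 459 to 875 CPM in the controls, 285 to 402 in Psi RNAi and 345 to 612 in Myc RNAi. The part of these tissues in the differences below was not tested, beyond repeating each fit without control replicate 1 and Psi RNAi replicate 1. In bulk tissue, fewer cells of a type and less RNA per cell cannot be told apart.

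The measured level of Myc mRNA was lower in every knockdown library than in every control, by about the same amount whether Psi or Myc itself was targeted. Counts per gene do not separate reads of a hairpin from reads of the mRNA it targets. The part of hairpin reads in the Myc level of Myc RNAi, and in its Myc ratios below, was not tested. Myc measured 150, 147 and 139 CPM across the control libraries, 107, 118 and 108 CPM across those of Psi RNAi and 132, 109 and 103 CPM across those of Myc RNAi. The Psi RNAi mean was thus 76.5% of control and the Myc RNAi mean 79.1%, and neither knockdown group overlapped with the controls. In Psi RNAi the log2 fold change was -0.39 ± 0.09 (edgeR adjusted p = 0.0214) and in Myc RNAi -0.34 ± 0.09 (adjusted p = 0.0146), and neither passed the threshold. Myc RNAi and Psi RNAi differed by 0.05 ± 0.09 with a 95% interval of -0.14 to 0.24 (edgeR adjusted p = 0.713), an interval that holds no difference as well as differences of that size in either direction. The Myc RNAi libraries were the least even of the 3 groups for Myc, with a coefficient of variation of 13.3% against 3.70% in the controls, and replicate 1 was the highest of them. Without that library Myc was called in both knockdowns, at -0.45 on the log2 scale in Myc RNAi (edgeR adjusted p = 0.000830) and an adjusted p of 0.00392 in Psi RNAi.

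**Figure D1:**
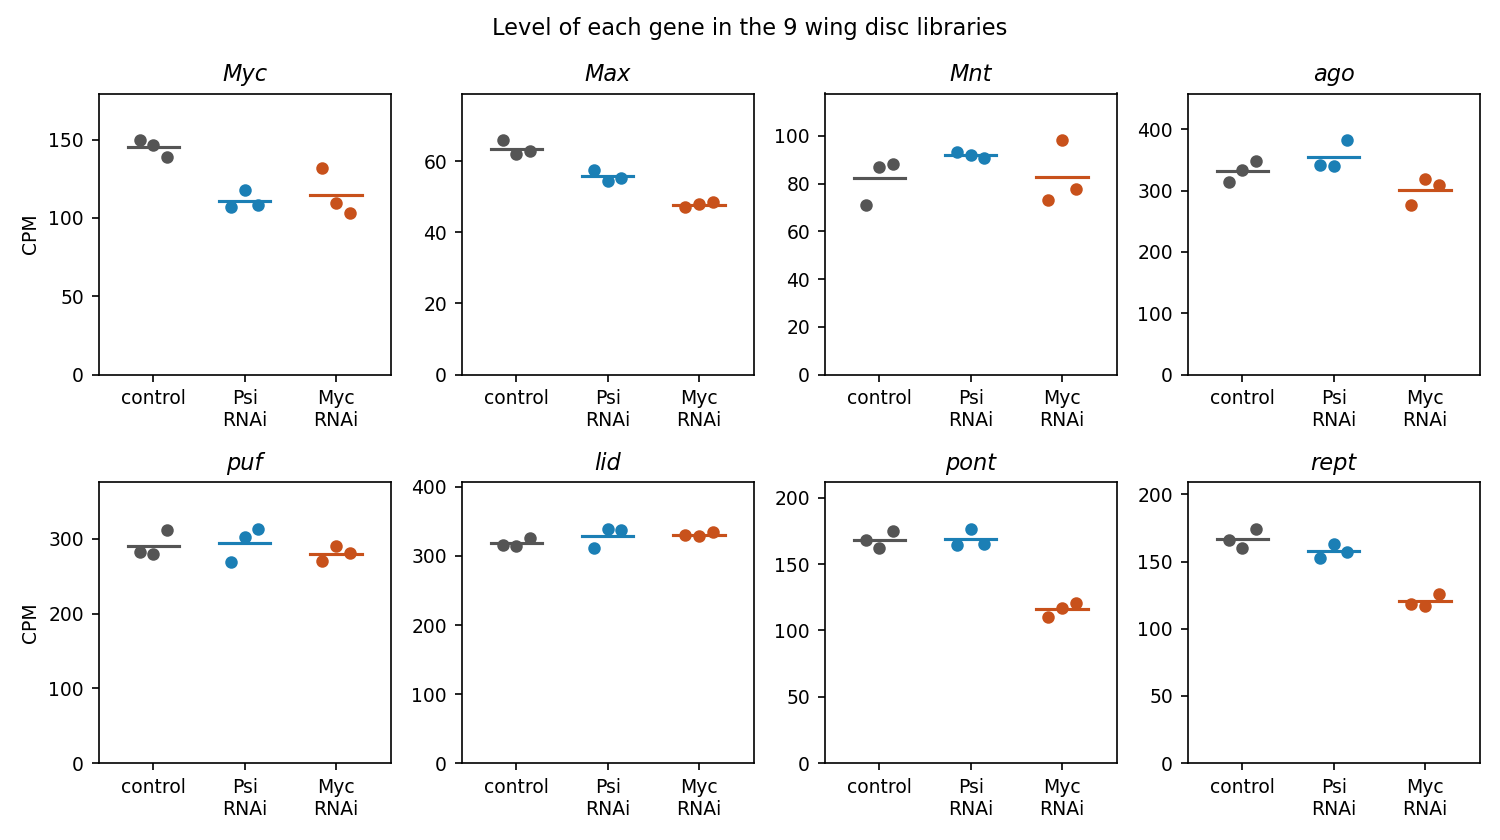
Level of the 8 genes in CPM (vertical axis, from 0) in the control (grey), Psi RNAi (blue) and Myc RNAi (orange) libraries, with 1 point per library in the order of replicates 1 to 3 and a bar at the group mean (n = 3). Myc is below the controls in all 6 knockdown libraries, Max steps down from control through Psi RNAi to Myc RNAi, and pont and rept are low in the Myc RNAi libraries.

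The call for Myc depended on the fit. In Psi RNAi it was also called with DESeq2 (adjusted p = 0.000858) and by edgeR fitted to those groups alone (0.00501), and its adjusted p ran from 0.000858 to 0.181 over 18 alternatives, the highest being that without control replicate 1 and Psi RNAi replicate 1. For Myc RNAi, DESeq2 gave a call (0.00302) and so did edgeR with a block for the replicate number (-0.34 on the log2 scale, adjusted p = 0.00972), and its adjusted p ran from 0.000830 to 0.115, the highest with libraries scaled to their total counts.

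Max, the dimerisation partner of Myc, fell in Myc RNAi and was also lower than in Psi RNAi. It measured 65.8, 61.9 and 62.8 CPM across the control libraries, 57.6, 54.4 and 55.3 CPM across those of Psi RNAi and 47.0, 48.0 and 48.4 CPM across those of Myc RNAi. No 2 of the groups overlapped, and the Myc RNAi libraries were close together, with a coefficient of variation of 1.52%. The fall in Myc RNAi was -0.41 ± 0.04 on the log2 scale (edgeR adjusted p = 8.37e-05) and was called in all 18 alternatives. In Psi RNAi the log2 fold change was -0.19 ± 0.04, which did not pass the threshold (edgeR adjusted p = 0.0260, from 0.00813 to 0.114 over the alternatives). The direct difference of Myc RNAi from Psi RNAi, -0.22 ± 0.04 (edgeR adjusted p = 0.00348), was lost in 5 of 18 alternatives, and with libraries scaled to total counts it was -0.07 (adjusted p = 0.221). It was also lost without Myc RNAi replicate 1 (0.0147) and without Psi RNAi replicate 1 (0.0126), without Psi RNAi replicate 1 and control replicate 1 together (0.0172) and in the fit of those groups alone (0.0104).

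Mnt, the repressor that shares Max with Myc, passed the threshold in neither knockdown. It measured 71.1, 87.1 and 88.3 CPM across the control libraries, 93.3, 91.8 and 90.8 CPM across those of Psi RNAi and 72.9, 98.1 and 77.7 CPM across those of Myc RNAi. The Psi RNAi libraries lay just above all controls and close to each other, whereas the Myc RNAi libraries spanned the controls on both sides. The log2 fold changes were 0.16 ± 0.12 in Psi RNAi (95% interval -0.10 to 0.43, edgeR adjusted p = 0.406) and 0.01 ± 0.12 in Myc RNAi (-0.25 to 0.28, adjusted p = 0.947), and none of the 18 alternatives gave a call.

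The balance between these partners was also measured inside each library, as a ratio of levels per kb of annotated exon, which does not depend on how libraries are scaled to each other. Myc to Max was 0.319, 0.334 and 0.312 in the controls, 0.262, 0.304 and 0.276 in Psi RNAi and 0.395, 0.321 and 0.299 in Myc RNAi. The ratio was lower in every Psi RNAi library than in any control, and the Myc RNAi libraries lay on both sides of the controls. The difference was -0.20 on the log2 scale in Psi RNAi (two-sided exact permutation test, p = 0.1, which is the lowest value possible with 3 against 3, adjusted p = 0.18 over 9 tests of 3 ratios) and 0.06 in Myc RNAi (p = 0.8, adjusted p = 0.8, exact permutation test).

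Myc to Mnt showed the wider gap. It was 1.04, 0.837 and 0.783 in the controls, 0.571, 0.637 and 0.593 in Psi RNAi and 0.899, 0.554 and 0.659 in Myc RNAi. All Psi RNAi libraries lay below all controls, a log2 difference of -0.56 (exact permutation p = 0.1, adjusted p = 0.18), whereas Myc RNAi replicate 1 lay among the controls and the other Myc RNAi libraries below them (log2 difference -0.35, exact permutation p = 0.3, adjusted p = 0.386). Leaving out 1 library moved the latter difference between -0.54 (without Myc RNAi replicate 1) and -0.19 (without Myc RNAi replicate 2). Myc RNAi and Psi RNAi overlapped (exact permutation p = 0.5). With 3 libraries a group, none of these ratios could reach an adjusted p of 0.05.

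**Figure D2:**
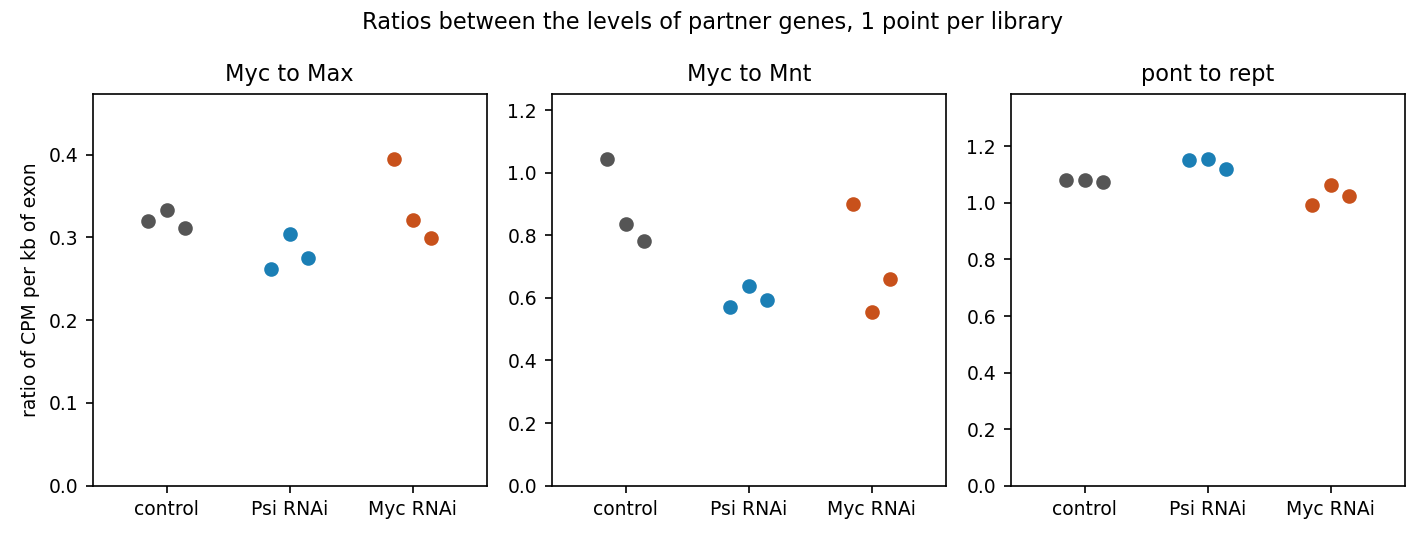
Ratios of levels per kb of exon inside each library (vertical axes, from 0) for Myc to Max, Myc to Mnt and pont to rept, with 1 point per library in the control (grey), Psi RNAi (blue) and Myc RNAi (orange) groups. Myc to Max and Myc to Mnt are lower in all 3 Psi RNAi libraries than in the controls, and pont to rept is highest in Psi RNAi and lowest in Myc RNAi.

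Neither ago nor puf, whose products act on the stability of Myc protein, passed the threshold in either knockdown. The ubiquitin ligase subunit gene ago measured 315, 333 and 348 CPM across the control libraries, 341, 341 and 382 CPM across those of Psi RNAi and 277, 318 and 310 CPM across those of Myc RNAi. Both knockdown groups overlapped with the controls but not with each other, since all Myc RNAi libraries lay below all Psi RNAi libraries. The log2 fold change against control was 0.10 ± 0.07 in Psi RNAi (adjusted p = 0.395 in edgeR) and -0.14 ± 0.07 in Myc RNAi (adjusted p = 0.157). Between Myc RNAi and Psi RNAi it was -0.23 ± 0.07 (edgeR adjusted p = 0.0240), which was called with DESeq2 (0.00752) and with a block for the replicate number (0.00544) but reached 0.355 with libraries scaled to total counts.

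The deubiquitinase gene puf measured 282, 279 and 312 CPM across the control libraries, 268, 302 and 313 CPM across those of Psi RNAi and 270, 290 and 280 CPM across those of Myc RNAi. These 9 values overlapped in every comparison. The log2 fold changes were 0.02 ± 0.07 in Psi RNAi (95% interval -0.13 to 0.17, edgeR adjusted p = 0.896) and -0.05 ± 0.07 in Myc RNAi (-0.20 to 0.09, adjusted p = 0.574).

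The histone demethylase gene lid passed the threshold in neither knockdown. It measured 316, 315 and 327 CPM across the control libraries, 312, 339 and 337 CPM across those of Psi RNAi and 330, 329 and 334 CPM across those of Myc RNAi. The Myc RNAi libraries lay just above all controls and had a coefficient of variation of 0.869%. The log2 fold change was 0.05 ± 0.04 in Psi RNAi (95% interval -0.05 to 0.14, edgeR adjusted p = 0.513) and 0.05 ± 0.04 in Myc RNAi (-0.04 to 0.15, adjusted p = 0.371). With libraries scaled to total counts, which moved the median of all genes in Myc RNAi from -0.03 to 0.13, the latter became 0.21 and was called (edgeR adjusted p = 0.00403).

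The ATPase genes pont and rept both fell in Myc RNAi, and in Psi RNAi neither passed the threshold. Pontin mRNA measured 168, 162 and 175 CPM across the control libraries, 165, 177 and 165 CPM across those of Psi RNAi and 110, 117 and 121 CPM across those of Myc RNAi. Psi RNAi overlapped with the controls, and every Myc RNAi library lay below the other 6. The fall in Myc RNAi was -0.54 ± 0.05 (edgeR adjusted p = 3.44e-05), so that the level decreased by 31.1%, and the log2 fold change in Psi RNAi was 0.00 ± 0.05 (95% interval -0.11 to 0.12, adjusted p = 0.984).

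Reptin mRNA measured 166, 160 and 174 CPM across the control libraries, 153, 163 and 157 CPM across those of Psi RNAi and 118, 117 and 126 CPM across those of Myc RNAi. Again the Myc RNAi libraries were separate from all others, and the Psi RNAi libraries reached into the control range from below. The fall in Myc RNAi was -0.47 ± 0.05 (edgeR adjusted p = 5.86e-05) and the log2 fold change in Psi RNAi -0.08 ± 0.05 (95% interval -0.19 to 0.03, adjusted p = 0.306). Against Psi RNAi directly, pont was lower in Myc RNAi by -0.54 ± 0.05 (edgeR adjusted p = 3.16e-05) and rept by -0.39 ± 0.05 (adjusted p = 0.000199). All 4 of these calls in Myc RNAi stood in each of the 18 alternatives, with adjusted p of at most 0.00383.

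Pontin and Reptin form mixed complexes, and their transcripts were near equal in amount. The ratio of pont to rept per kb of exon was 1.08, 1.08 and 1.07 in the controls, 1.15, 1.16 and 1.12 in Psi RNAi and 0.994, 1.06 and 1.03 in Myc RNAi. The 3 groups did not overlap, with differences from control of 0.08 in Psi RNAi and -0.07 in Myc RNAi on the log2 scale (exact permutation p = 0.1 each, adjusted p = 0.18). The levels of pont and rept followed each other over the 9 libraries (Pearson's r = 0.981, on log2 values) and those of Max and rept at r = 0.908. These correlations rest on 3 groups of libraries that share scaling and depth, and are a description.

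**Figure D3:**
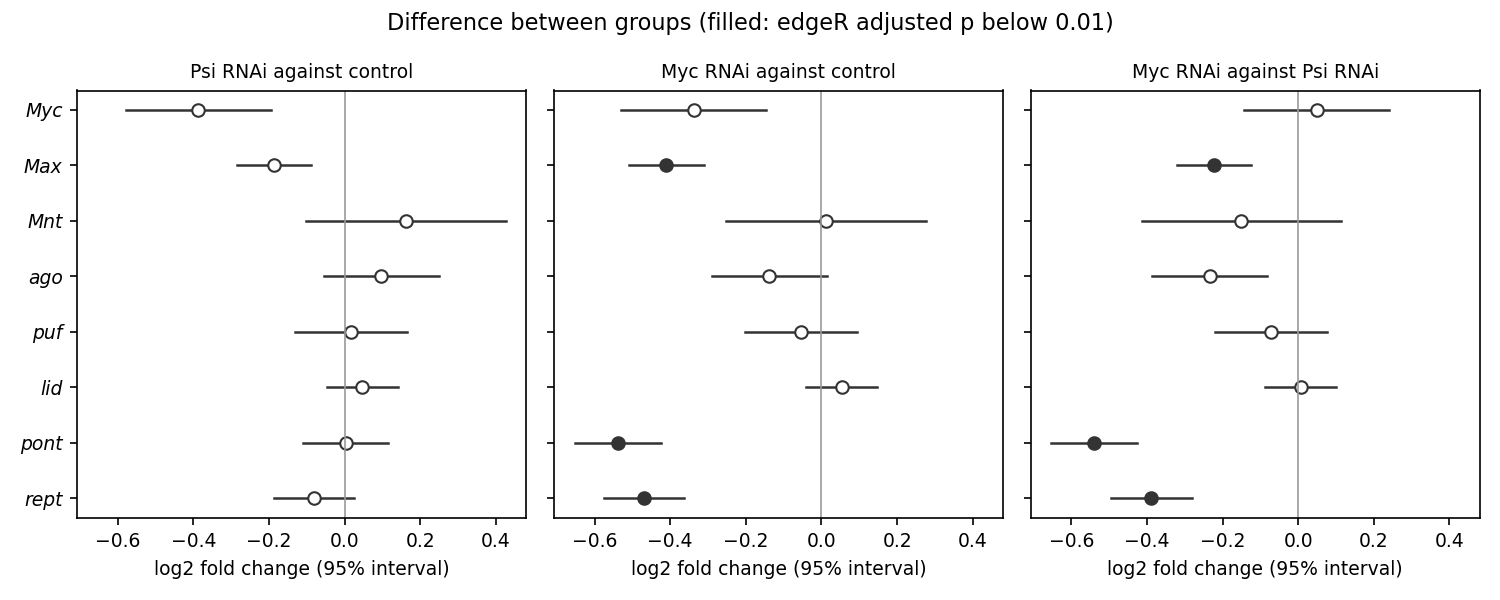
Log2 fold changes of the 8 genes (points) with 95% intervals (lines) for Psi RNAi against control, Myc RNAi against control and Myc RNAi against Psi RNAi, with filled points for an edgeR adjusted p below 0.01. Max, pont and rept are filled in both comparisons that involve Myc RNAi, at -0.22 to -0.54, and no point is filled for Psi RNAi against control.

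Counted together, 0 of the 8 genes were called in Psi RNAi, where 4.07% of all tested genes were called. At an unadjusted p below 0.05 there were 2, Myc and Max (27.5% of all tested genes), and DESeq2 called Myc and Max as well (8.95% of the genes it tested). In Myc RNAi, 3 of 8 (Max, pont and rept) were called, all lower, where 19% of all tested genes were called and 11.4% were called lower, and DESeq2 called Myc besides (24.1% of the genes it tested). The same 3 were called lower in Myc RNAi than in Psi RNAi, where 22.3% of all tested genes were called and 12.8% lower, and DESeq2 called ago besides (25.1% of the genes it tested). The median log2 fold change of the 8 was 0.01 in Psi RNAi, -0.24 in Myc RNAi and -0.19 between the knockdowns, beside -0.01, -0.03 and -0.01 over all tested genes. Without overlap, Myc and Max were lower and Mnt higher in Psi RNAi than in control, where 16.4% of all tested genes were separate on each side. In Myc RNAi, Myc, Max, pont and rept were lower and lid higher without overlap, where 24.3% and 21.7% of all tested genes were. Below Psi RNAi without overlap were Max, ago, pont and rept, beside 24.2% of all tested genes. Scaling libraries to their total counts turned the split of all calls in Myc RNAi from 702 higher and 1052 lower (40.0% higher) to 2015 higher and 717 lower (73.8% higher), and from 42.7% to 73.7% higher between Myc RNAi and Psi RNAi, whereas Max, pont and rept were called lower than control under either scaling. The knockdowns share their control libraries, so their fold changes against control are not independent of each other. Pairs aligned to more than one place, which are outside the gene counts, made up 12.3% to 15.8% of the pairs in Myc RNAi and 9.52% to 11.5% in the other libraries, and the part of this in the falls was not tested.

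By level per kb of exon, the ATPase genes stood highest of the 8 in the controls and Myc lowest, an order that depends on the length used. The place of Myc relative to Mnt also depends on the exonic bases that Myc shares with another gene, which were kept in its length. In the control group pont was at 102 and rept at 94.2 CPM per kb, with overlapping libraries, and then followed ago at 60.1, Max at 49.2, lid at 44.6, puf at 21.7, Mnt at 18.0 and Myc at 15.8 CPM per kb. Apart from pont and rept, Mnt and Myc were the neighbours whose libraries overlapped. In Psi RNAi lid (46.0 CPM per kb) stood above Max (43.2), with overlapping libraries, and in Myc RNAi lid (46.3) was above Max (37.1) in every library. In both knockdowns Myc was the lowest and separate from Mnt, at 12.1 CPM per kb in Psi RNAi and 12.5 in Myc RNAi. Per kb of coding length, Max was the highest in the controls at 131 CPM, followed by pont at 123 and rept at 116, and puf was the lowest at 24.7. Myc was then at 67.5 CPM per kb, above Mnt at 34.7, as most of the exonic length of Myc is untranslated.

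The genes around these 8 were then examined in 7 lists drawn from knowledge of Myc biology. With libraries scaled to total counts, the number called in Myc RNAi in either direction became 2 of 6, 3 of 7, 3 of 11, 4 of 17, 11 of 13, 2 of 13 and 13 of 13 in the order given here. Under that scaling 2732 of the 9235 tested genes were called. The shares of all tested genes given below are from the main fit. Among 6 other transcription factors of the Myc class, none passed the threshold in Psi RNAi (4.07% of all tested genes did) and 1 fell in Myc RNAi, where 11.4% of all tested genes were called lower. That gene was Mondo, a nutrient-responsive factor of the Max-like network, from 130 to 113 CPM (log2 fold change -0.20 ± 0.04, edgeR adjusted p = 0.00626). Its partner gene bigmax differed by -0.19 ± 0.11 on the log2 scale in Myc RNAi (edgeR adjusted p = 0.241). The call for Mondo was lost with RLE scaling and without control replicate 1 and Psi RNAi replicate 1 (0 of 6 called each). It was also lost without any 1 of the Myc RNAi or control libraries (0 of 6 each), whereas without Psi RNAi replicate 1 alone 2 of 6 were called.

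Of 7 regulators of Myc transcription or Myc mRNA, 3 fell in Psi RNAi (4.07% of all tested genes were called there, in either direction) and none passed the threshold in Myc RNAi (19% of all tested genes did). The 3 include Psi, which was the gene targeted. The others were pUf68, also called hfp, which encodes a splicing factor that represses Myc transcription, and brat. The product of brat is a translational repressor that limits Myc protein in neural stem cell lineages. pUf68 measured 340, 367 and 362 CPM across the control libraries, 228, 212 and 250 CPM across those of Psi RNAi and 376, 334 and 356 CPM across those of Myc RNAi. The Psi RNAi libraries lay below all the others, and the log2 fold change was -0.63 ± 0.07 (edgeR adjusted p = 0.000654). brat measured 670, 654 and 673 CPM across the control libraries, 542, 554 and 587 CPM across those of Psi RNAi and 736, 718 and 730 CPM across those of Myc RNAi, so it was low in every Psi RNAi library and above the controls in Myc RNAi, where its difference from control did not pass the threshold (0.13 ± 0.04, edgeR adjusted p = 0.0329). Its log2 fold change was -0.25 ± 0.04 in Psi RNAi (edgeR adjusted p = 0.00472) and 0.38 ± 0.04 between Myc RNAi and Psi RNAi (adjusted p = 7.14e-05). Without control replicate 1 and Psi RNAi replicate 1, 2 of the 7 were called in Psi RNAi. The Hippo pathway co-activator gene yki, which also acts on Myc transcription, was at -0.01 ± 0.06 in Psi RNAi (adjusted p = 0.926 in edgeR) and 0.08 ± 0.06 in Myc RNAi (adjusted p = 0.314).

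The list on Myc protein turnover, which includes ago and puf, had 11 members, with 0 called in Psi RNAi and 1 higher and 1 lower in Myc RNAi, where 4.07% and 19% of all tested genes were called. The kinase gene sgg, the fly GSK3, whose product phosphorylates Myc for recognition by Ago, measured 278, 284 and 278 CPM across the control libraries, 269, 300 and 287 CPM across those of Psi RNAi and 348, 347 and 331 CPM across those of Myc RNAi. All Myc RNAi libraries lay above all others, a rise of 0.29 ± 0.05 (edgeR adjusted p = 0.00119). The deubiquitinase gene scny went down in Myc RNAi from a mean of 240 to 199 CPM (-0.27 ± 0.06, edgeR adjusted p = 0.00722). SkpA, a subunit of the same ubiquitin ligase as Ago, was lower in Myc RNAi than in Psi RNAi (-0.21 ± 0.05, edgeR adjusted p = 0.00694). Between these groups 2 of the 11 were called, against 22.3% of all tested genes, but 0 in the fit of those groups alone and 0 without control replicate 1 and Psi RNAi replicate 1 together, and leaving out 1 library gave 1 to 3. In Myc RNAi against control 1 of the 11 was called with RLE scaling, and 1 also without any 1 of the Myc RNAi or control libraries or without Psi RNAi replicate 2.

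Pontin and Reptin are subunits of the Tip60, SWR and INO80 remodelling complexes, of which 17 other subunits were examined. In Psi RNAi none was called (4.07% of all tested genes were), and in Myc RNAi 1 of 17 fell, where 11.4% of all tested genes were called lower. This was dom, which encodes the ATPase motor of the Tip60 complex. dom measured 933, 939 and 1023 CPM across the control libraries, 939, 1049 and 972 CPM across those of Psi RNAi and 703, 753 and 689 CPM across those of Myc RNAi. The Myc RNAi libraries were separate from all others, and the fall was -0.43 ± 0.06 on the log2 scale (edgeR adjusted p = 0.000376). The acetyltransferase gene Tip60 itself was at -0.14 ± 0.05 in Psi RNAi (adjusted p = 0.0903 in edgeR) and -0.05 ± 0.05 in Myc RNAi (adjusted p = 0.414). The list's median was -0.05 in Myc RNAi, beside -0.03 over all tested genes.

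Pontin and Reptin also act with the R2TP co-chaperone in snoRNP assembly. Of 13 genes for R2TP, its adaptors and snoRNP core proteins, 11 fell in Myc RNAi, with a list median of -1.80, where 11.4% of all tested genes were called lower. The rRNA methyltransferase gene Fib went from 241 to 54.7 CPM (-2.14 ± 0.05, edgeR adjusted p = 4.96e-08), and Nop60B, the pseudouridine synthase of the other snoRNP class, from 492 to 123 CPM (edgeR adjusted p = 4.96e-08). The core protein genes hoip (-2.18 ± 0.06) and CG4038 (-2.13 ± 0.06) fell by similar amounts. The members not called were the R2TP subunit genes spag (-0.25 ± 0.07, edgeR adjusted p = 0.0239) and Pih1D1 (-0.10 ± 0.05, adjusted p = 0.166). In Psi RNAi the same list had 1 call, Pih1D1, where 4.07% of all tested genes were called, and a median of -0.04. The level of Pih1D1 dropped from 158 to 106 CPM (-0.57 ± 0.05, edgeR adjusted p = 0.000203).

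Of 13 partners of Lid and other histone demethylases, 0 were called in Psi RNAi (4.07% of all tested genes were) and 1 fell in Myc RNAi, where 11.4% of all tested genes were called lower. This was CG2982, the fly NO66, a nucleolar oxygenase, from 85.9 to 36.4 CPM (-1.24 ± 0.09, edgeR adjusted p = 4.25e-06). The demethylase gene Su(var)3-3, the fly LSD1, was lower in Myc RNAi than in Psi RNAi (-0.22 ± 0.04, edgeR adjusted p = 0.00183). The Lid partner genes ash2 and Hcf had log2 fold changes of 0.01 ± 0.06 and 0.00 ± 0.05 in Myc RNAi (edgeR adjusted p = 0.920 and 0.975).

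All 13 nucleolar and RNA polymerase I genes known from earlier work to respond to Myc fell in Myc RNAi, and 0 of 13 were called in Psi RNAi, where 11.4% of all tested genes were called lower and 4.07% called, respectively. The median log2 fold change was -1.18 in Myc RNAi and 0.04 in Psi RNAi. The nucleolar gene l(1)1Bi went from 100 to 25.3 CPM in Myc RNAi (-1.99 ± 0.07, edgeR adjusted p = 8.86e-08), the RNA polymerase I subunit gene RpI135 from 94.1 to 26.6 CPM (-1.82 ± 0.08), the helicase gene pit from 158 to 63.3 CPM (-1.32 ± 0.05) and the ribosome assembly gene CG5033 from 153 to 67.6 CPM (-1.18 ± 0.05). Directly between Myc RNAi and Psi RNAi, all 13 were lower in Myc RNAi (list median -1.14), as were 11 of the 13 R2TP and snoRNP genes (list median -1.86), beside 12.8% of all tested genes. The Myc levels of these groups differed by 0.05 ± 0.09 on the log2 scale. Those levels are RNA counts in which hairpin reads were not separated, and Myc protein was not measured.

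**Figure D4:**
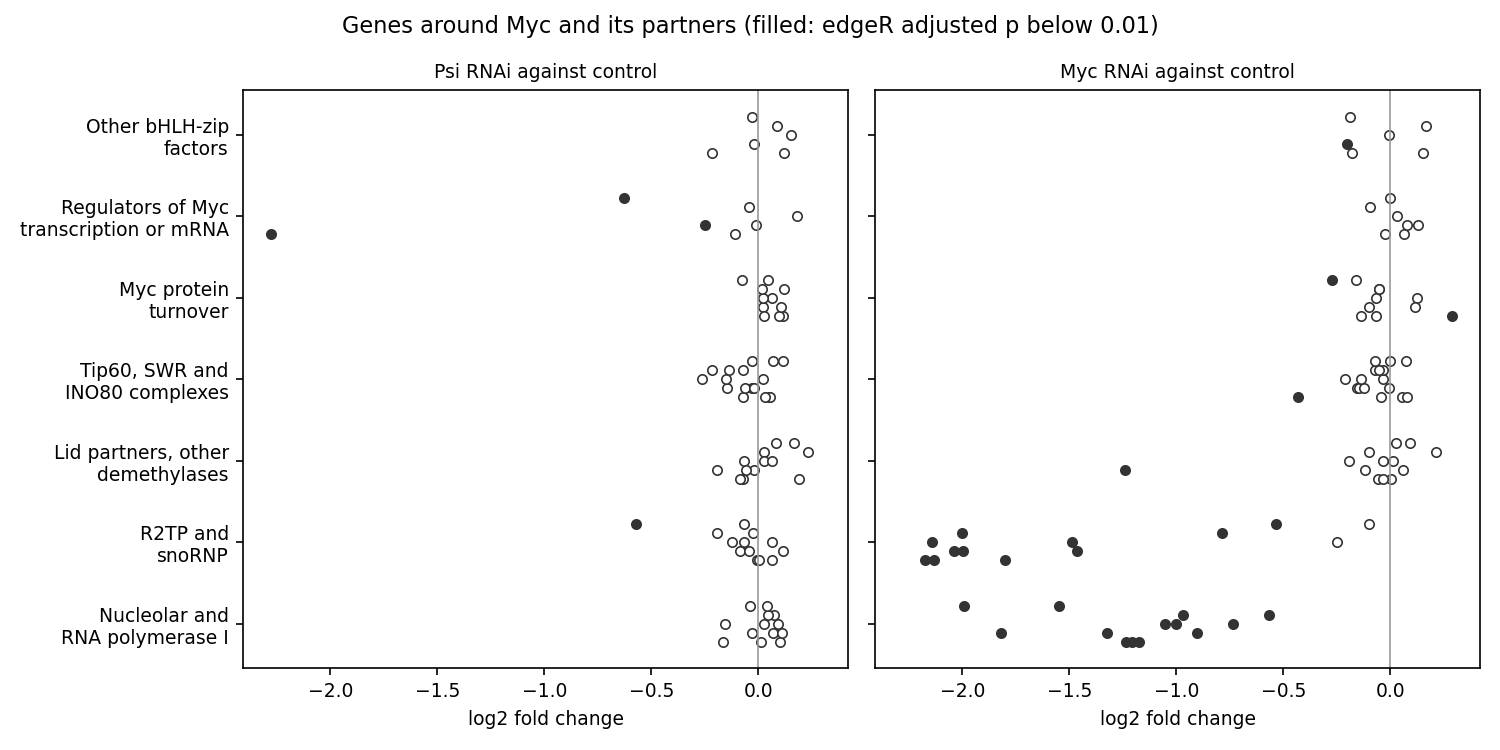
Log2 fold changes of genes in 7 lists around Myc and its partners (1 point per gene, spread vertically for visibility) for Psi RNAi against control (left) and Myc RNAi against control (right), with filled points for an edgeR adjusted p below 0.01. In Myc RNAi 11 of 13 R2TP and snoRNP genes and all 13 nucleolar and RNA polymerase I genes are filled and below 0, whereas in Psi RNAi the filled points are Psi, pUf68, brat and Pih1D1.

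The genes whose log2 levels most resembled those of Myc, pont and rept over the 9 libraries were listed as a description. For Myc the closest were Rho1, a small GTPase gene of the actin cytoskeleton (r = 0.948, 530 CPM in control, 489 in Psi RNAi and 497 in Myc RNAi), then His-Psi:CR33867 (r = 0.946), twin (0.940), CG13126 (0.937) and CG6216 (0.936), of which His-Psi:CR33867 and CG6216 were at 2.09 and 1.36 CPM in the controls. For pont they were l(3)72Dn (r = 0.997), CG6769 (0.996), CG2691 (0.996), Tcp-1zeta (0.995) and CG13097 (0.995). For rept they were CG15561 (r = 0.997), CG11417 (0.996), bor (0.995), AdSS (0.995) and Acon (0.994). Of these, Tcp-1zeta, a subunit gene of a cytosolic chaperonin, went from 478 CPM in the controls to 305 in Myc RNAi, and Acon, the mitochondrial aconitase gene, from 461 to 328 CPM. The 9 libraries share 3 conditions, so high correlations here follow the differences between the groups.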

How the data were processed

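The counts deposited by the authors are whole read pairs per gene, 1 library per file, from stranded poly(A) libraries checked with FastQC 0.11.6, aligned with TopHat2 2.1.1 and counted with HTSeq 0.6.1, per the submitters' processing notes. The authors' deposited log2 fold changes and p-values (DESeq2 1.12.0) were not used, and their tables served only to link identifiers to symbols. Deposited splicing tables hold other values, reads over junctions and exons of unnamed library sets. A further 28 columns of values per library were not used. Library sizes exclude the 5 summary lines per file, in which 1.28% to 1.90% of pairs fell in no gene and 1.52% to 1.80% were ambiguous.

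Differential expression used edgeR 4.0.16 under R 4.3.3 (TMM scaling, filterByExpr, robust quasi-likelihood fit over all 9 libraries, no covariate, Benjamini-Hochberg adjustment over 9235 genes, call below 0.01). The biological coefficient of variation was 23.0%. The procedure was also run on simulated data of smaller spread, which does not measure its error rates in these data. Ratios were tested with exact permutation tests. Lengths are from the Ensembl release 115 annotation of BDGP6, and 13375 symbols came from the authors' tables, 4053 from a reference table, with 43 genes unnamed. Alternatives were RLE and total count scaling, TMM without ribosomal protein genes, no filter, a non-robust fit, fits of the compared groups alone, DESeq2 1.42.0, a replicate block and leaving out libraries. The 8 genes, the lists and the naming rule (all 8 genes, Psi, up to 4 called members of smallest p per list and comparison, and the 5 genes most correlated with Myc, pont and rept) were chosen with earlier results of these data known. List members that were not called and are named for contrast were picked after their values were seen.

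Same-numbered libraries deviated together across genes between control and Psi RNAi (correlations 0.106 to 0.280) and between control and Myc RNAi (0.217 to 0.409). They did not between Psi RNAi and Myc RNAi (-0.171 to 0.0173), where Psi RNAi replicate 2 and Myc RNAi replicate 1 gave 0.217. The sources do not explain the numbers, and whether same-numbered libraries are pairs was not settled by these values. No 2 libraries of a group agreed within sampling noise (lowest chi-square per degree of freedom 18.3).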

Additional observations from a re-analysis of the deposited data

Results flagged for a closer look

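The splicing tables, which no comparison above uses, hold reads for the Mnt gene. Over the 6 libraries of these tables, 391 reads were assigned to the longest form of a Mnt exon that ends at X:3699027 and starts at 3698118. This was listed because it is a signal outside the main measurement. The headers do not say which set of 3 libraries is Psi RNAi and which is control, so no direction and no test is given.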

How the results depend on the processing

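Of the log2 fold changes of the 8 genes in 18 alternative fits, 398 kept their direction and side of the threshold, 10 passed it newly, 5 lost it and 19 changed sign, the latter all from values that were not called, and a threshold of 0.05 added 4 calls. In Psi RNAi, DESeq2 called 873 genes and 2 of the 8, a threshold of 0.05 called 975 and 2 of the 8, and the fit of those groups alone called 1 of the 8. Without control replicate 1 and Psi RNAi replicate 1 together 82 genes were called, and leaving out 1 library at a time gave 150 to 350 genes and 0 to 1 of the 8. In Myc RNAi, total count scaling called 2732 genes and a threshold of 0.05 called 2812, and leaving out 1 library gave 1219 to 1725. Between the knockdowns a threshold of 0.05 called 3215 genes, and leaving out 1 library gave 1393 to 1862. Signs changed in Psi RNAi for pont without the filter (-0.00303), and leaving out 1 library gave -0.0323 to 0.0386 for pont and -0.0305 to 0.0802 for puf. In Myc RNAi total count scaling gave 0.0154 for ago and 0.0992 for puf, leaving out 1 library gave -0.126 to 0.0957 for Mnt, -0.0844 to 0.0158 for puf and -0.0535 to 0.147 for the Myc to Max ratio, and leaving out both libraries above gave -0.0837 for Mnt. Between Myc RNAi and Psi RNAi total count scaling gave 0.00171 for Mnt and 0.0816 for puf, leaving out 1 library gave -0.0642 to 0.120 for Myc and -0.0334 to 0.0272 for lid, and leaving out both gave -0.0327 for lid. The cause of these changes was not tested. The replicate block changed no call of the 8 genes other than Myc in Myc RNAi (adjusted p = 0.00972) and ago between the knockdowns (0.00544). Within a group the coefficient of variation of a gene reached 16.1% (Mnt in Myc RNAi), which bounds how small a difference of Mnt could be detected.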

Other observations

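Of the 8 genes, Mnt had the most events in the splicing tables, with 13, followed by puf with 4 and Myc, Max and lid with 1 each, and ago, pont and rept had 0. These numbers hold every listed event, whether or not it differed between the groups, and are not counts of splicing changes. The annotation gives the Mnt exon above 4 alternative starts. It begins at 3698118 in 4 transcripts (coding length 2367 to 2370 bases), at 3698340 in 1 (2148 bases), at 3698742 in 4 (1746 to 1749 bases) and at 3698745 in 1 (1743 bases), so that a start at 3698118 adds 627 coding bases over the start at 3698745. In the first unnamed set of libraries, 37, 48 and 44 reads were assigned to the start at 3698118, and 47, 47 and 34 to that at 3698745. In the second set, the reads were 70, 112 and 80 for the long form and 12, 17 and 15 for the short form. After scaling by the lengths the tables give for each form, the long form made up 9.69%, 12.2% and 15.0% in the first set and 44.3%, 47.3% and 42.1% in the second. The tables list the same long-form reads against each of the shorter starts. These reads are divided by 321, 723 or 726 bases for the starts at 3698340, 3698742 and 3698745, so the percentages depend on that divisor. Against the start at 3698340 the long form made up 36.3%, 57.4% and 53.1% in the first set and 87.8%, 85.2% and 100% in the second. The sets did not overlap in these 2 events. Against the start at 3698742, which held 4, 1 and 0 reads in the first set and 2, 2 and 0 in the second, the long form made up 55.9%, 86.8% and 100% and 82.7%, 88.5% and 100%, which overlapped. The Mnt counts above sum all of these forms.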
